A study of Mus musculus with 29 samples.

Results

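Immediate-early genes are genes whose transcription is switched on by growth factor, serum or stress signalling from proteins the cell already holds, so that their transcripts can rise without new protein. A set of 10 such genes and close relatives is described here across bulk RNA-seq libraries of cultured mouse adipose cells. They were taken by symbol as Fos, Fosb, Fosl1, Jun, Junb, Jund, Egr1, Myc, Atf3 and Ier3, each matched to 1 Ensembl ID, out of 56953 features in the count table. The rule that picked their rows used symbols alone, but the set itself was chosen with earlier results of these data known. The 29 libraries came from crude stromal vascular fraction (SVF), the mixture of non-adipocyte cells released by enzyme digestion of white fat, from C57BL6/J mice. Cells of the inguinal depot (iWAT, under the skin) or the perigonadal depot (pgWAT, inside the abdomen) of adult males or females were grown in culture wells. The study then moved each RNA sample into 1 well of another plate for library preparation. The labelled well positions run to row P and were taken as positions on that library plate. Plate columns below are its columns. Every culture, in all 4 groups, had spent 4 days in PM1 medium with 1 nM basic FGF, a fibroblast growth factor that acts through ERK signalling, so no group without the growth factor entered these comparisons. By label, 19 libraries were from iWAT (10 of males and 9 of females) and 10 were from pgWAT (4 of males and 6 of females), and replicate numbers here follow deposition order and pair nothing. The study's methods give other sizes for these 29 samples, among them 9 of iWAT for each sex and 6 of pgWAT males. The labels and the methods thus differ in depot as well as in sex, and the labels were followed here. The wells were technical replicates that came from a pair of independent experiments for pgWAT and a few for iWAT. The labels name wells but not the experiment or animals behind each, so wells that share an experiment could not be grouped. All p-values below describe the spread between wells and are too small when read over experiments or animals. Crude SVF was neither sorted nor depleted of blood-derived cells.

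Fos, Fosb and Fosl1 encode Fos-family proteins, and Jun, Junb and Jund encode Jun-family proteins. A Fos protein pairs with a Jun protein, or Jun proteins with each other, to form AP-1, a transcription factor that acts in proliferation and in the response to stress. Egr1 is a zinc-finger transcription factor induced through ERK and serum response factor. Myc drives ribosome production, nucleotide synthesis and entry into the cell cycle. Atf3 is a stress-induced member of the ATF family that acts downstream of ATF4, and in macrophages it restrains inflammatory genes. Ier3 encodes a small protein that promotes survival and prolongs ERK signalling. In adipose progenitors, growth factor signalling through ERK, AP-1 and Myc accompanies expansion before differentiation.

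The promoters of several members carry short motifs that CREB, ATF and AP-1 proteins can bind. Of the 10 members, 7 had an entry in the RefSeq promoter table of the GRCm38.p6 build, and Fosl1, Egr1 and Myc had none. The 120 bases before the start site are shown for Jun and Ier3, which were called between depots in opposite directions, and for Fos, Junb and Atf3, which were not called with the sexes together. Capitals mark matches on either strand to TGACG or to TGACNTCA, which overlap each other where N is G.
Fos: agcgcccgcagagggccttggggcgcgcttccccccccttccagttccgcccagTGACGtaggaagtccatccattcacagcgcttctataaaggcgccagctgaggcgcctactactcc
Jun: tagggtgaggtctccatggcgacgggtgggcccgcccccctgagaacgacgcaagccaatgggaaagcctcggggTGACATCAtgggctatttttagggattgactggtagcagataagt
Junb: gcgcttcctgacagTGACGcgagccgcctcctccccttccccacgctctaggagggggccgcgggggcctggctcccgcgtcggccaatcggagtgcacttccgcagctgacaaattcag
Atf3: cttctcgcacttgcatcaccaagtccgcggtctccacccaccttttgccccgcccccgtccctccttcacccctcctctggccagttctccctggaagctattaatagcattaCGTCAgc
Ier3: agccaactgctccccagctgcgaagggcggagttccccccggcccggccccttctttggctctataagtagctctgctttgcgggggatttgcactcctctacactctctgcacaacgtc
These windows lie at chr12:85473770-85473889 on the plus strand for Fos, chr4:95052223-95052342 on the minus strand for Jun, chr8:84978749-84978868 on the minus strand for Junb, chr1:191183334-191183453 on the minus strand for Atf3 and chr17:35821593-35821712 on the plus strand for Ier3. TGACG was matched in the windows of Fos, Fosb, Junb and Atf3, and in 11.7% of all 32851 windows of the same length. TGACNTCA was matched in the Jun window alone among the 7, from base -45 to base -38 counted from the start site, and in 5.07% of all windows. The windows of Ier3 and Jund held neither. The AP-1 motif TGANTCA (3.41% of all windows) and the CArG box of serum response factor (0.749%) had no match in any of the 7, and the EGR-type motif GCGNGGGCG (3.36%) was matched in Fosb alone. A match describes letters in this window and not a bound site, and a missing match says nothing about bases outside these 120. Jun, called lower in pgWAT, and Fos, Junb and Atf3, not called between the depots with the sexes together, all held a match to TGACG or TGACNTCA.

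Total counts ran from 315316 to 1102234 per library, and a gene with no counts in a library may still be present at up to 3 counts, which is 2.72 CPM in the deepest library and 9.51 CPM in the shallowest (CPM, counts scaled to a common library total). Reads without molecular identifiers are included, so limits and intervals cover counting error only. Fibroblast content was checked with the markers Col1a1, Col3a1, Dcn, Lum, Pdgfra and Fn1, whose summed level was between 6530.1 and 23251 CPM in every library. These markers were high in both depots, so they do not check the depot labels. The sex-linked genes Xist, Ddx3y, Eif2s3y, Uty and Kdm5d matched the labelled sex in all 19 iWAT libraries. In pgWAT, 5 of 10 libraries did not match: male replicates 2 and 4 and female replicates 2 and 3 carried the genes of the other sex, and female replicate 1 carried both. Groups are kept as labelled, and the depot calls of the members and the counts of the gene lists are also given without these 5 libraries. The filter on low counts then left 9516 genes, of which 12.2% were higher and 11.5% lower in pgWAT.

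Most members were covered by few reads after 4 days in growth factor. Read counts follow transcript length as well as level, and they set how well a gene can be tested. Mean read shares over all 29 libraries were 51.5 CPM for Myc, 47.7 CPM for Fosl1 and 39.4 CPM for Jun, near or just above the middle of all 8853 genes that passed the filter on low counts (percentiles 61.1, 58.5 and 52.4). Ier3 (28.5 CPM) and Junb (26.0 CPM) stood at percentiles 39.9 and 36.2. Atf3 (12.0 CPM) and Fos (9.78 CPM) stood at percentiles 6.56 and 2.02. Thus 7 of the 10 members were tested, while Egr1, Jund and Fosb did not pass the filter. The filter kept a gene that reached a count minimum in about as many libraries as the smallest group holds.

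The order of the levels was read per kilobase of the longest coding transcript, since a longer transcript gives more reads. In iWAT the mean level per length fell from Fosl1 (32.1 ± 10.9 CPM per kb, SD, n = 19) through Myc (24.1 ± 7.14), Ier3 (19.9 ± 8.23), Jun (15.3 ± 3.79), Junb (12.6 ± 8.08), Atf3 (5.58 ± 2.90), Fos (4.11 ± 2.35), Egr1 (1.89 ± 1.28) and Jund (0.919 ± 0.969) to Fosb (0.213 ± 0.241). No neighbouring pair in that order differed by more than the larger SD of the pair. In pgWAT the order began with Ier3 (35.3 ± 8.16 CPM per kb, SD, n = 10), which lay above the next member, Myc (18.2 ± 7.08), by more than the larger SD. Junb (17.8 ± 9.57), Fosl1 (13.1 ± 8.49), Atf3 (7.01 ± 6.99), Jun (6.74 ± 3.00) and Fos (5.65 ± 4.11) followed without a gap of that size. Fosl1 thus stood at the top of the order in iWAT and at rank 4 in pgWAT, Jun went from rank 4 to rank 6, and Ier3 from rank 3 to rank 1.

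**Figure D1:**
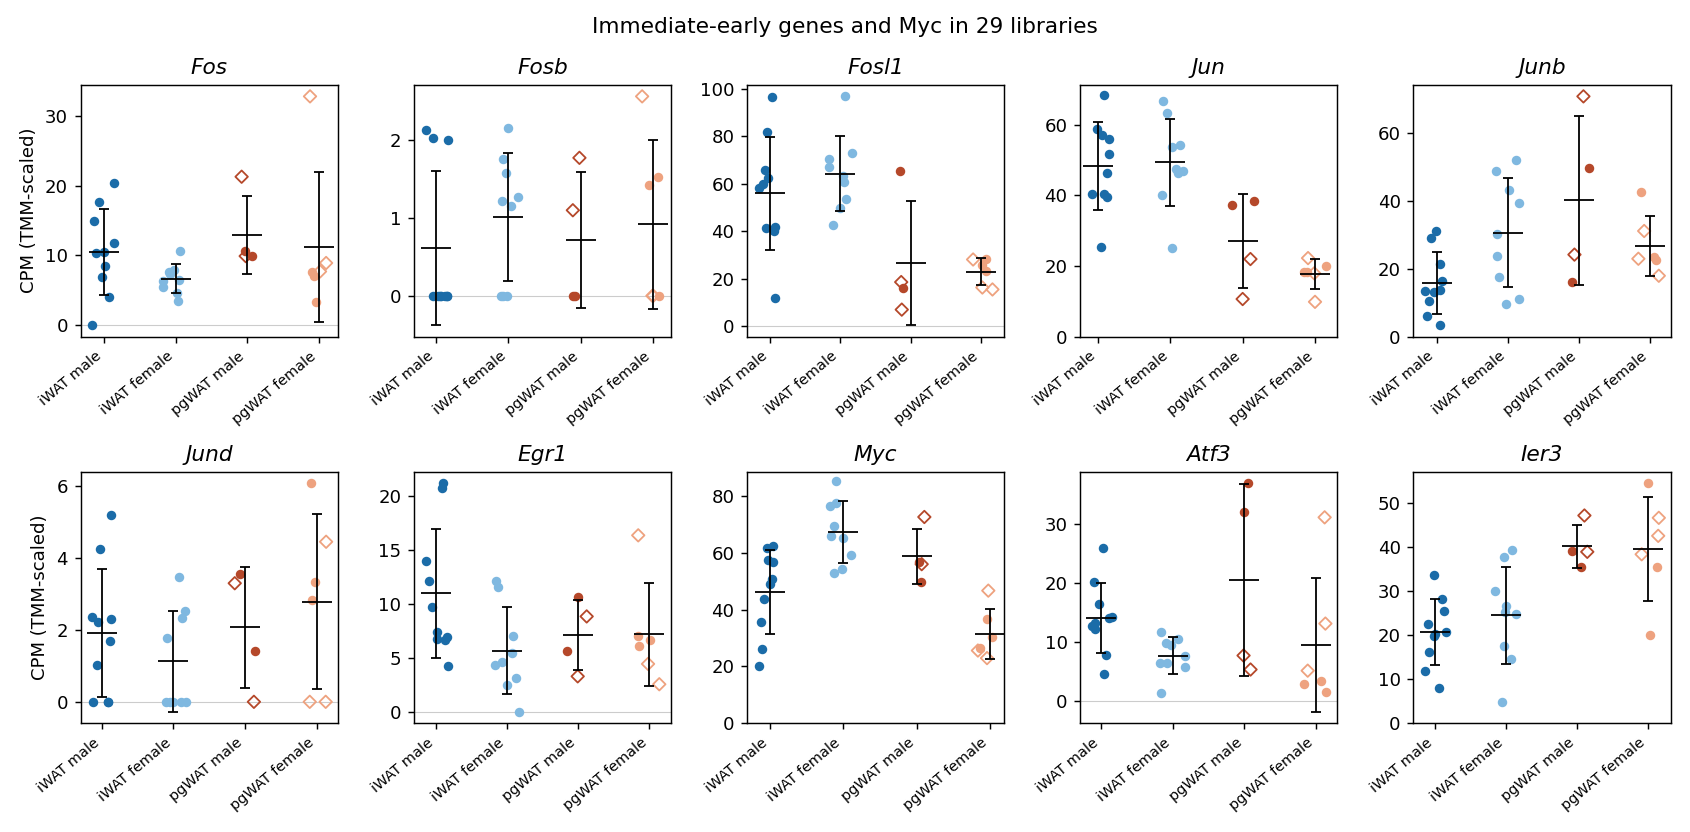
Levels of the 10 members in CPM (TMM-scaled, linear axes) in each of the 29 libraries by labelled depot and sex. Points are libraries, open diamonds are the 5 pgWAT libraries whose sex-linked genes did not match the label, and bars are the mean ± SD; Jun and Fosl1 lie lower and Ier3 higher in pgWAT, while Atf3 spreads from 1.52 to 36.9 CPM within pgWAT.

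The comparison of depots asked whether inguinal and perigonadal cultures differ under the same growth factor. Jun and Fosl1 were lower in pgWAT, 2.21-fold and 2.34-fold, Ier3 was 1.80-fold higher, and Myc was 1.29-fold lower at the edge of the threshold. Fos, Junb and Atf3 did not pass the test. In all, 4 of the 7 tested members were called (3 lower and 1 higher in pgWAT) at an FDR below 0.05 in edgeR's quasi-likelihood test, and 38.1% of all tested genes were called in this comparison (17.9% lower and 20.1% higher). The median log2 fold change was 0.36 over the 7 tested members and 0.01 over all tested genes. These were bulk cultures, in which fewer cells of a type and less RNA per cell cannot be told apart.

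Jun (ENSMUSG00000052684.5, chromosome 4), the defining AP-1 subunit, was lower in pgWAT with little overlap. In iWAT males its level was between 25.4 and 68.4 CPM with a median of 49.1, and in iWAT females between 25.2 and 66.7 CPM with a median of 47.5. The 4 pgWAT male libraries gave 37.3, 10.6, 38.4 and 21.97 CPM, and the 6 pgWAT female libraries lay between 9.83 and 22.2 CPM with a median of 18.3. All 10 pgWAT libraries were below the iWAT mean of 48.9 CPM, and 8 of them were below every iWAT library. The log2 fold change was -1.14 (SE 0.18, edgeR FDR = 4.30e-06). It was -0.84 in labelled males (SE 0.25, FDR = 0.0168) and -1.45 in labelled females (SE 0.25, FDR = 4.12e-05), and the difference between these was not called (edgeR FDR = 0.660). Within single columns of the library plate the values were -0.46 in column 7 and -1.28 in column 9, which compare labelled males. They were -1.40 in column 8 and -1.94 in column 10, which compare labelled females. The pgWAT wells of columns 9 and 10 were the 5 libraries that did not match their sex label. Column 7 held a single pgWAT well, and column 10 held a single iWAT well. Without the 5 libraries that did not match their sex label, the depot difference was -0.89 (edgeR FDR = 0.00127), while in males alone, with 2 pgWAT libraries left, it was -0.39 (FDR = 0.459), and in females it was -1.40 (FDR = 0.000530). The male value also lost its call without pgWAT male replicate 2 (-0.60, FDR = 0.106) or replicate 4 (FDR = 0.0737).

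Fosl1 (ENSMUSG00000024912.7, chromosome 19) encodes FRA-1, a Fos-family protein that accumulates under sustained ERK signalling. Its level lay between 11.8 and 96.5 CPM in iWAT males (median 59.2) and between 42.6 and 96.8 CPM in iWAT females (median 63.4). In pgWAT males it was 16.0, 7.09, 65.4 and 18.7 CPM, and in pgWAT females between 15.6 and 28.3 CPM with a median of 24.6. A single pgWAT library, male replicate 3, was above the iWAT mean of 59.9 CPM, and the other 9 were below it. The log2 fold change was -1.23 (SE 0.25, edgeR FDR = 0.000211), with -1.03 in labelled males (FDR = 0.0435) and -1.43 in labelled females (FDR = 0.00208). Male replicate 3 moved the male value most: without it the log2 fold change was -1.95 (edgeR FDR = 0.000397), and without male replicate 2 it was -0.75 (FDR = 0.188). The male call was lost in 9 of 29 fits that left out 1 library. In plate column 7, which holds that library as its only pgWAT well, Fosl1 was 0.56 higher in pgWAT on the log2 scale, and it was lower by -1.20, -2.57 and -2.26 in columns 8, 9 and 10. Without the 5 libraries that did not match their label the depot difference was -0.85 (edgeR FDR = 0.0285), with -1.27 in females (FDR = 0.0231) and -0.44 in males (FDR = 0.587), where the call was lost.

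Ier3 (ENSMUSG00000003541.7, chromosome 17) went the other way. It lay between 8.01 and 33.7 CPM in iWAT males (median 20.5) and between 4.73 and 39.5 CPM in iWAT females (median 25.4). In pgWAT males it was 39.1, 39.0, 35.5 and 47.2 CPM, above every iWAT male library, and in pgWAT females it lay between 19.99 and 54.7 CPM with a median of 40.5. Of the 10 pgWAT libraries 9 were above the iWAT mean of 22.5 CPM and 4 were above every iWAT library. The log2 fold change was 0.85 (SE 0.20, edgeR FDR = 0.00113), with 0.96 in labelled males (FDR = 0.0204) and 0.74 in labelled females (FDR = 0.0426). The depot difference was 0.75 (edgeR FDR = 0.0430) without the libraries that did not match their label, but neither sex alone was then called (FDR = 0.249 in males and 0.195 in females). The male call was also lost without pgWAT male replicate 4 (0.85, FDR = 0.0986), and the female call was lost in 9 of 29 fits that left out 1 library, with the highest FDR, 0.142, without pgWAT female replicate 5. With plate column as a factor the depot difference was 0.59 (edgeR FDR = 0.0443), and both calls by sex were lost, at 0.73 in males (FDR = 0.0819) and 0.45 in females (FDR = 0.346). In single columns it was 0.79 and 0.99 in labelled males (columns 7 and 9) and 0.35 and 0.49 in labelled females (columns 8 and 10). All pgWAT wells of columns 9 and 10 did not match their label.

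**Figure D2:**
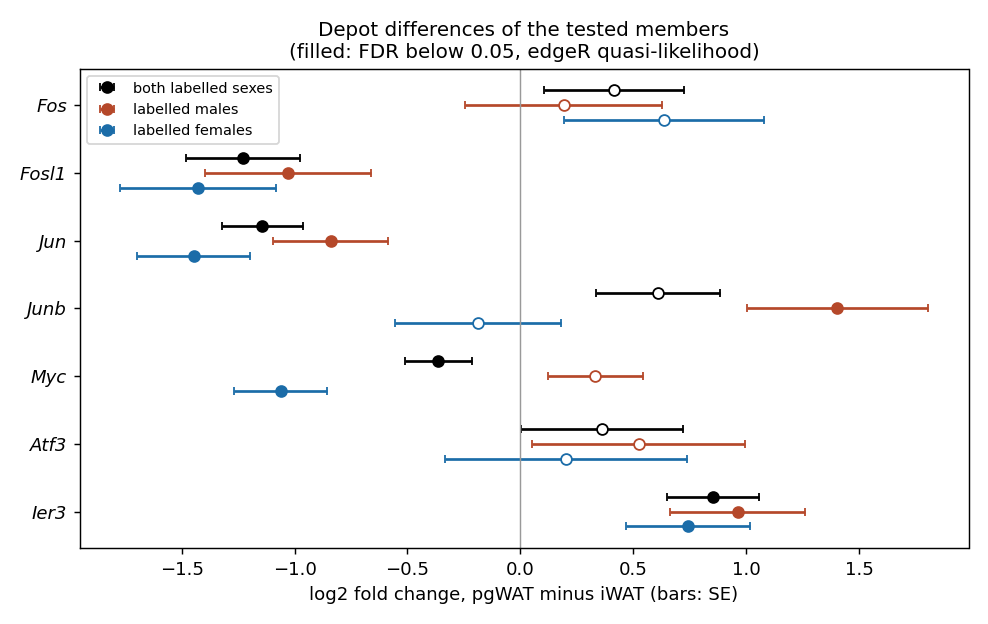
Log2 fold change (pgWAT minus iWAT, horizontal axis) of the 7 tested members in both labelled sexes together, in labelled males and in labelled females. Bars are SEs and filled points have an FDR below 0.05 in edgeR's quasi-likelihood test; Jun and Fosl1 lie left of 0 and Ier3 right of 0 in all 3 comparisons, and Myc and Junb differ in sign between the labelled sexes.

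Myc (ENSMUSG00000022346.18, chromosome 15) followed a different order: it was highest in iWAT females and lowest in pgWAT females. Its level lay between 20.2 and 62.3 CPM in iWAT males (median 49.9), between 52.9 and 85.3 CPM in iWAT females (median 65.9) and between 22.9 and 46.7 CPM in pgWAT females (median 28.5). The 4 pgWAT male libraries gave 49.8, 72.6, 56.8 and 56.0 CPM. The labelled female libraries of the depots did not overlap, and the labelled pgWAT male libraries were all above the pgWAT female ones. Within labelled females Myc was 2.09-fold lower in pgWAT (log2 fold change -1.06, SE 0.21, edgeR FDR = 0.000184), and without the libraries that did not match it was -1.08 (FDR = 0.00350). Within labelled males the log2 fold change was 0.33 (FDR = 0.279). The depot difference in males minus that in females was 1.39 (SE 0.29, edgeR FDR = 0.0340), 1 of 16 genes called in that comparison (0.181% of the tested genes). Without the libraries against their label it was 1.25 (FDR = 0.0778), and it lost its call in 10 of 29 fits that left out 1 library, with the highest FDR, 0.130, without pgWAT male replicate 2. It also lost its call by limma-voom (FDR = 0.0728) and with plate column as a factor (FDR = 0.0506 by edgeR). Averaged over the sexes, the depot difference of -0.36 (SE 0.15, edgeR FDR = 0.0498) lost its call in 20 of 29 such fits, with the highest FDR, 0.0898, without pgWAT male replicate 1. Without the 5 libraries against their label it was -0.45 (edgeR FDR = 0.0843), which was not called. Within pgWAT and within iWAT females the spread of Myc between libraries was close to counting error (ratio of observed to Poisson variance 0.932 in pgWAT males, 0.998 in pgWAT females and 1.24 in iWAT females), and it was 2.46 in iWAT males, where replicates 1 and 2 (20.2 and 26.0 CPM) were lowest.

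Junb (ENSMUSG00000052837.8, chromosome 8), a Jun-family protein that can restrain Jun activity, ranged widely within groups. It lay between 3.37 and 31.1 CPM in iWAT males (median 13.6), between 9.47 and 52.1 CPM in iWAT females (median 30.1) and between 17.9 and 42.5 CPM in pgWAT females (median 23.1). In pgWAT males it was 16.0, 70.9, 49.7 and 24.2 CPM. Between depots in labelled males the log2 fold change was 1.40 (SE 0.40, edgeR FDR = 0.0115), and in labelled females it was -0.19 (FDR = 0.757). The difference between these was 1.59 with an FDR of 0.373 in the edgeR fit, so it was not called. The male value rested on pgWAT male replicate 2, whose sex-linked genes went against the label: without it the log2 fold change was 1.01 (edgeR FDR = 0.122), and without all 5 such libraries it was 1.14 (FDR = 0.186).

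Fos (ENSMUSG00000021250.14, chromosome 12), the founding Fos-family gene, was close to the detection limit in every group. Its median was 10.4 CPM in iWAT males, 6.45 CPM in iWAT females and 7.64 CPM in pgWAT females, with ranges of 0 to 20.3, 3.48 to 10.6 and 3.33 to 32.8 CPM. In pgWAT males it was 10.7, 21.3, 9.95 and 9.89 CPM. These levels rest on 0 to 20 counts per library, and the groups overlapped. The depot difference was 0.41 (SE 0.31, edgeR FDR = 0.312), and it was -0.09 (FDR = 0.899) without the 5 libraries against their label, which include the highest ones, pgWAT female replicate 1 and pgWAT male replicate 2. A difference within that spread was not detectable at this depth.

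Egr1 (ENSMUSG00000038418.8, chromosome 18), Jund (ENSMUSG00000071076.9, chromosome 8) and Fosb (ENSMUSG00000003545.4, chromosome 7) were too low for the test. Egr1 gave 107 counts over the 19 iWAT libraries, a pooled level of 8.67 CPM (95% exact Poisson interval 7.11 to 10.5), and 37 counts over the 10 pgWAT libraries, 6.67 CPM (4.69 to 9.19). Jund gave 19 counts in iWAT (1.54 CPM, 0.927 to 2.40) and 15 in pgWAT (2.703 CPM, 1.51 to 4.46), and Fosb gave 11 (0.891 CPM, 0.445 to 1.60) and 5 (0.901 CPM, 0.293 to 2.10). The intervals of the depots overlapped for each of the 3 genes. JunD is usually regarded as the constitutive Jun-family protein, and here Jund was at 0 counts in 11 of 29 libraries. The GC content of its longest coding transcript is 67.1%, and of 67 coding genes at or above that GC content 3 (4.48%) passed the filter, against 39.6% of all 21780 coding genes. Whether GC content has a part in the low count was not tested. Without the filter, the depot differences of Egr1, Jund and Fosb were -0.29, 0.64 and 0.01 on the log2 scale, and edgeR called none of them (FDR = 0.850, 0.659 and 1.00).

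Atf3 (ENSMUSG00000026628.14, chromosome 1) did not differ between depots by the test (log2 fold change 0.36, SE 0.36, edgeR FDR = 0.456), but its level varied widely within pgWAT. In pgWAT males it was 32.0, 5.32, 36.9 and 7.69 CPM, and in the pgWAT female replicates 1 to 6 it was 13.1, 5.12, 31.1, 2.83, 1.52 and 3.33 CPM. In iWAT it lay between 4.62 and 25.9 CPM in males (median 13.6) and between 1.38 and 11.6 CPM in females (median 7.56). Male replicates 1 and 3 and female replicate 3 of pgWAT were above every iWAT library, and female replicate 1 lay between them and the other 6. The ratio of observed to Poisson variance was 9.18 and 7.12 in the pgWAT male and female groups, and 1.02 and 0.979 in the iWAT male and female groups.

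The levels of macrophage genes moved with Atf3 in pgWAT. The summed level of 8 macrophage markers (Ptprc, Cd68, Adgre1, Lyz2, Csf1r, C1qa, C1qb and Tyrobp) was 7938 and 8493 CPM in pgWAT male replicates 1 and 3, and 1289.9 and 1196 CPM in male replicates 2 and 4. In pgWAT females it was 2396, 3693 and 3509.8 CPM in replicates 1 to 3, and 843, 804 and 883 CPM in replicates 4 to 6. The 3 libraries with the most Atf3 were thus among the 4 with the most macrophage RNA, with pgWAT female replicate 2 the exception, at 5.12 CPM of Atf3. Across iWAT libraries the markers lay between 1529 and 2611 CPM in males and between 679 and 1184 CPM in females, none of the 8 was at 0 in any group, and 6 of the 7 that passed the filter were called higher in pgWAT, against 20.1% of all tested genes (Lyz2 1.15, Cd68 1.13, C1qa 1.97 and C1qb 1.93 on the log2 scale). Leaving out the 5 libraries gave 8 tested markers, of which 6 were higher in pgWAT, with 8 in males and 1 in females. Over all genes tested in that fit, 12.2% were higher with the sexes together, 5.84% in males and 9.94% in females. As a description over wells that share experiments, Spearman's rho between Atf3 and the summed markers, each about its group mean, was 0.60 over all 29 libraries, 0.87 over the 10 pgWAT libraries and 0.20 over the 19 iWAT libraries. Male replicates 1 and 3 and female replicates 1 to 3 of pgWAT had 10 to 34 Y-linked counts and 2396 to 8493 CPM of markers. The other pgWAT libraries carried Xist with at most 1 Y-linked count and had 804 to 1289.9 CPM of markers. Labelled groups mix these sets, so the rho over pgWAT also holds the difference between them. The genes whose deviations followed Atf3 most closely over all 29 libraries were C1qc (r = 0.78), a complement gene of macrophages, Evl (r = 0.77), an actin regulator, and Ms4a7 (r = 0.76), a macrophage membrane protein. The part of macrophage RNA in the Atf3 levels was not tested.

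**Figure D3:**
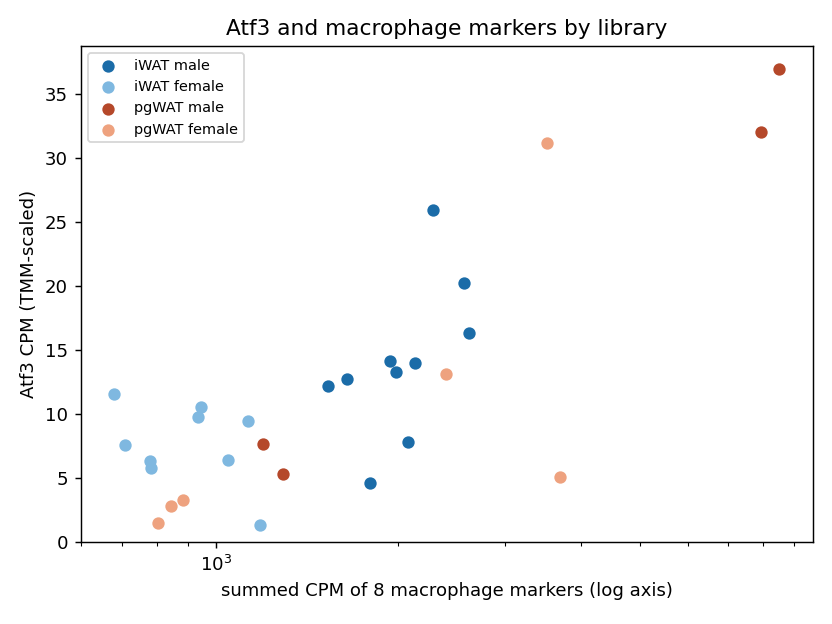
Atf3 in CPM (linear axis) against the summed CPM of 8 macrophage markers (log axis) in the 29 libraries, coloured by labelled group. The 3 pgWAT libraries with 31.1 to 36.9 CPM of Atf3 carry between 3509.8 and 8493 CPM of macrophage markers, and the 5 pgWAT libraries with 804 to 1289.9 CPM of markers have 1.52 to 7.69 CPM of Atf3. Those 3 libraries had 26 to 34 Y-linked counts, and those 5 carried Xist with at most 1 Y-linked count.

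The labelled sex was compared within each depot. Within iWAT, where all labels matched the sex-linked genes, 0 of the 7 tested members were called by edgeR, and 3.22% of all tested genes were. At an unadjusted p below 0.05 there were 2, both lower in males: Myc (log2 fold change -0.53, SE 0.16, FDR = 0.0641) and Junb (-1.06, SE 0.33, FDR = 0.0739). Myc was called by DESeq2 (FDR = 0.0397) and limma-voom (FDR = 0.0446), and Junb was called by edgeR without the filter (FDR = 0.00986). Leaving out iWAT male replicate 8 brought both below the threshold (FDR = 0.0488 for Myc and 0.0457 for Junb), male replicate 7 did so for Myc (0.0458), and female replicates 1 and 2 did so for Junb (0.0366 and 0.0380). Fos (0.72, FDR = 0.337) and Atf3 (0.83, FDR = 0.325) had higher fitted values in males without passing the edgeR test. Within pgWAT, 0 of 7 members were called by edgeR, DESeq2 or limma-voom, with Myc (0.86, FDR = 0.274) and Atf3 (1.16, FDR = 0.597) at an unadjusted p below 0.05 in the edgeR fit, and 1 gene in all was called (0.0113% of those tested).

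Without the 5 libraries that did not match, which left 2 pgWAT male and 3 pgWAT female libraries, Atf3 was called between the pgWAT sexes (log2 fold change 3.70, edgeR FDR = 0.000124). It was 32.0 and 36.9 CPM in those males and 1.52 to 3.33 CPM in those females, beside macrophage marker sums of 7938 and 8493 CPM and of 804 to 883 CPM. These levels rest on 18 and 26 counts in the males and on 2, 1 and 1 counts in the females. The female counts are below the floor of 3 counts, so the size of the Atf3 difference is poorly determined. The depot difference of Atf3 in males minus that in females was then 2.88 (FDR = 0.0175 in the edgeR fit). With so few wells, sex and macrophage RNA cannot be told apart here, and the female replicate 3 library, which carried Y-linked counts, had 31.1 CPM of Atf3.

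Within labelled males 4 of 7 members were called between depots (Jun and Fosl1 lower, Ier3 and Junb higher in pgWAT), beside 20.3% of all tested genes (8.53% lower and 11.8% higher). Within labelled females 4 of 7 were called (Jun, Fosl1 and Myc lower, Ier3 higher), beside 26.8% (12.6% lower and 14.2% higher). These comparisons share no libraries with each other, but both are parts of the pooled depot comparison.

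Deviations of the members from well to well were compared with each other and with the summed marker lists. Of the deviations from group means, on the log2 scale and over 29 libraries, the closest pair among the 10 members was Junb and Myc (Pearson r = 0.54, Spearman rho = 0.48, and r = 0.47 without the 2 farthest libraries). Fos and Jun, partners in AP-1, had r = -0.37 and rho = -0.28, and Fos and Egr1 had r = 0.14. Levels of a few counts per library limit these values. Among the lists, Fosl1 followed the proliferation markers (Spearman rho 0.58 over 29 libraries and 0.77 over the 19 of iWAT), the MYC-dependent genes named below (0.61) and, inversely, the fibroblast markers (-0.66 and, in iWAT, -0.78). The part of these lists in the Fosl1 levels was not tested. Deviations of Myc were followed most closely by Cacybp, a calcyclin-binding ubiquitin ligase adaptor (r = 0.86), Tmem234 (r = 0.83) and Tpst2, a tyrosine sulfotransferase (r = 0.83). Those of Fos were followed by Prpf18, a splicing factor (r = 0.79), Cenpi, a centromere protein (r = 0.76), and Ccdc47 (r = 0.75), and those of Egr1 by Man1c1 (r = 0.63), Rad52 (r = 0.60) and Nprl3 (r = 0.59). Each is among the highest over all tested genes by construction. Leaving out the 2 farthest libraries lowered the r of Prpf18 from 0.79 to 0.61.

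Other immediate-early genes were called in both directions. Of 25 other immediate-early transcription factors, 13 were tested, 5 were higher and 2 lower in pgWAT (median 0.41), against 20.1% higher and 17.9% lower over all tested genes. With the 5 libraries against their label left out, 14 were tested, with 2 higher and 2 lower (median -0.04). The lower ones were Egr2 (log2 fold change -1.94, SE 0.19, edgeR FDR = 9.01e-10), a close relative of Egr1, and Klf10 (-1.34), a TGF-beta responsive factor. Egr2 had 83.1 to 300.1 CPM in iWAT and 24.5 to 86.7 CPM in pgWAT. Fosl2 (FRA-2, 0.97) and Maff (a small Maf protein, 0.64) were among the higher ones, so 2 Fos-family genes, Fosl1 and Fosl2, were called in opposite directions. Of 12 further AP-1 dimer partners 8 were tested, with 4 higher and 1 lower (median 0.35), and without the 5 libraries 9 were tested with 2 higher and 0 lower. Fosl2 and Maff are in both lists.

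Of 31 secreted, signalling and feedback genes of the immediate-early programme, 24 were tested, 15 were higher and 3 lower in pgWAT, with a list median of 0.79 on the log2 scale against 0.01 over all genes. Higher were Gadd45g, a stress and growth arrest gene (1.81), F3, which encodes tissue factor (1.77), and Socs3, an inhibitor of cytokine signalling (1.59). Lower was Ptgs2, the inducible prostaglandin synthase COX-2 (-1.83, edgeR FDR = 0.000115), with 19.7 to 150.1 CPM in iWAT and 2.56 to 48.6 CPM in pgWAT. In the same comparison 20.1% of all tested genes were higher and 17.9% lower. The counts were 11 higher and 3 lower of 25 tested (median 0.54) without the 5 libraries. Many of these genes respond to several pathways besides ERK.

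Of 14 genes of ERK feedback and ERK-responsive ETS factors, 12 were tested, 1 was higher and 6 were lower in pgWAT, with a list median of -0.49, against 20.1% higher and 17.9% lower over all tested genes. The counts became 0 higher and 4 lower of 12 (median -0.30) without the 5 libraries. The ETS factor Etv4 (-1.61, SE 0.19, edgeR FDR = 4.36e-08), the receptor signalling inhibitor Spry4 (-1.21) and the ERK phosphatase Dusp6 (-0.87) were lower. Spry2, of the same family as Spry4, was higher (1.21, edgeR FDR = 0.000119), with 35.6 to 322.5 CPM in pgWAT males. Jun and Fosl1 were lower and Ier3 was higher in the same comparison, and a part of ERK signalling in these differences was not tested.

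Myc's partners and its commonly cited targets were compared in the same fit. Of 13 genes of the MYC network 9 were tested, 2 were higher and 1 was lower, the antagonist Mxd3 (-0.86), near the shares over all tested genes (20.1% higher and 17.9% lower), and the counts were the same without the 5 libraries. Of 24 ribosome, nucleolar and growth genes known to depend on MYC, all were tested, 18 were lower in pgWAT and 0 were higher by edgeR (median -0.60), and 6 were not called, against 17.9% lower over all tested genes. They include the nucleolar proteins Npm1 (-0.84, SE 0.09, edgeR FDR = 2.11e-09), Nop58 (-0.83) and Nop56 (-0.80) and the pyrimidine synthesis enzyme Cad (-0.81). In labelled males, where Myc had a fitted value of 0.33, 10 of the 24 were lower and 0 higher (median -0.47), against 8.53% of all genes lower, and in labelled females 17 were lower and 0 higher (median -0.73), against 12.6%. When the 5 libraries were left out, 14 were lower with the sexes together (median -0.49), 3 in males (median -0.38) and 11 in females (median -0.58), and 0 were higher in each. Over all genes tested in that fit, 11.5% were lower with the sexes together, 3.32% in males and 8.35% in females. The summed level of the 24 was between 7048 and 8119.6 CPM in pgWAT males and between 6964 and 7828 CPM in pgWAT females, while the fitted Myc level was 1.81-fold higher in the labelled pgWAT males than females, which was not called. Npm1 gave 489 to 524 CPM in pgWAT males and 384 to 554 CPM in pgWAT females, below every iWAT library (675 to 1118 CPM).

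Stress genes were listed because Atf3 and Ier3 also respond to stress and to handling. Of 15 genes of the integrated stress response 13 were tested, 7 were higher in pgWAT and 0 lower (median 0.40), against 20.1% higher and 17.9% lower over all tested genes. That direction was lost without the 5 libraries, when 14 were tested, with 4 higher and 4 lower (median 0.03). With all libraries the higher ones included Ddit4 (1.504), Atf5 (1.17), Nupr1 (0.84) and Atf4 (0.55), the activator of the programme. Of 9 heat shock genes, which rise on tissue dissociation, 2 were higher and 2 lower, with Hsp90aa1 at -0.36 and Hspa8 at -0.21 (median -0.15), near the shares over all tested genes. Of the 9, 1 was higher and 0 lower without the 5 libraries.

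**Figure D4:**
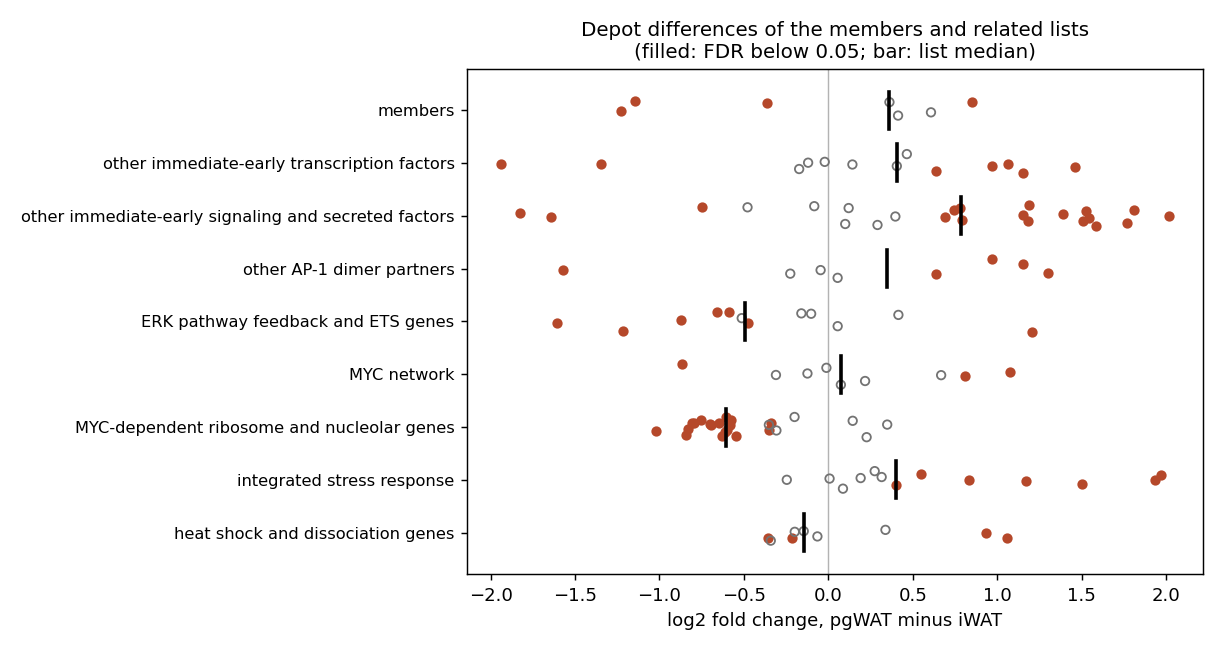
Log2 fold change (pgWAT minus iWAT, horizontal axis) of each tested gene of the members and of 8 related lists. Filled points have an FDR below 0.05 in edgeR's quasi-likelihood test and black bars are list medians; the ribosome and nucleolar list lies mostly left of 0 (18 of 24 lower), and the immediate-early signalling list mostly right of 0 (15 of 24 higher).

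The cultures of the depots also differed in markers of cell types and of the cell cycle, in the same comparison that gave the depot differences of Jun, Fosl1 and Ier3. Of 8 proliferation markers (Mki67, Top2a, Ccnb1, Cdk1, Birc5, Pcna, Mcm2 and Ccna2) 6 were lower in pgWAT and 0 higher, against 17.9% lower over all tested genes, with Ccnb1 at -1.02 and Cdk1 at -0.73 on the log2 scale. Leaving out the 5 libraries also gave 6 lower and 0 higher, with 1 lower in males and 6 in females. Over all genes tested in that fit, 11.5% were lower with the sexes together, 3.32% in males and 8.35% in females. Their summed level lay between 877 and 1359.9 CPM in iWAT and between 477 and 1032 CPM in pgWAT. About group means over 29 libraries, Spearman's rho with this sum was 0.58 for Fosl1, 0.11 for Jun and 0.29 for Ier3. For Jun it was -0.41 over the iWAT libraries and 0.81 over the pgWAT libraries. The summed fibroblast markers lay between 6530.1 and 12500.3 CPM in iWAT and between 11960.5 and 23251 CPM in pgWAT, and the smooth muscle markers Acta2, Tagln, Myh11 and Cnn1 between 586 and 3647 CPM and between 1214 and 3101 CPM. Mesothelial markers (Msln, Upk3b, Wt1, Lrrn4, Upk1b and Krt19) summed to between 2.00 and 100.7 CPM in iWAT and to between 60.4 and 194 CPM in pgWAT, and Msln, Upk3b, Lrrn4 and Upk1b were at 0 in every iWAT male library. Endothelial markers summed to at most 165 CPM, pericyte markers to at most 46.0 CPM and adipocyte markers to at most 44.0 CPM in any library, and epithelial markers reached 1539 CPM in iWAT female replicate 9 alone against at most 284 CPM elsewhere. The part of these markers in the depot differences was not tested.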

How the data were processed

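Bulk Smart-seq3 libraries, a full-length protocol with molecular identifiers, were analysed for 29 cultures. The authors trimmed adapters, quantified reads with Salmon 1.9.0 against a GRCm39 Gencode transcriptome and summed transcripts to genes. The deposited values are expected counts per gene, not normalized, with molecular-identifier and other reads together. They were rounded to whole counts, and 85.1% of the nonzero values were already whole. Of 56953 Ensembl IDs, 52029 (91.4%) were matched to a symbol. A GRCm38 annotation gave symbols, transcript lengths and GC content.

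Groups follow the labels. All contrasts were fitted over the whole table in R 4.3.3 with edgeR 4.0.16 (TMM factors, filterByExpr on the 4 groups, a means model with 1 term per group, two-sided quasi-likelihood F test, Benjamini-Hochberg adjustment over 8853 genes, FDR threshold 0.05). The SE of each log2 fold change is that change divided by the square root of its F value. CPM use TMM-scaled totals, and log2 CPM a prior count of 2. Alternatives were RLE factors, totals only, no filter, DESeq2 1.42.0, limma-voom 3.58.1, plate column as a factor or alone, depot alone, a fold threshold of 1.5, leaving out the 5 pgWAT libraries against their sex label, and leaving out each library. The edgeR fit was tested on simulated data.

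The members and lists were chosen with earlier results of these data known. Named are the 10 members, the sex-linked genes, from each related list up to 4 genes called between depots with the largest absolute log2 fold change and an average log2 CPM of at least 5, and the 3 genes whose deviations from group means followed Fos, Egr1, Atf3 and Myc most closely.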

Additional observations from a re-analysis of the deposited data

Results flagged for a closer look

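In groups of 4 to 10 libraries, a library was singled out when its gap to the next one was large for the range of its group. For normally distributed values chance meets this criterion in about 1 of 20 groups. Levels that rest on few counts need not be so distributed, so that rate is no measure for them. The criterion was met in 4 of the 40 gene and group pairs. The library pgWAT female replicate 1, whose sex-linked genes belonged to both sexes, accounted for 3 of these. It had the highest Fos (32.8 CPM) and the highest Egr1 (16.4 CPM) of its group, from 10 and 5 counts, and the lowest Jun (9.83 CPM). The other was pgWAT male replicate 2, with the highest Fos of its group (21.3 CPM), from 12 counts, and sex-linked genes of the other sex. It also had the highest Junb of all 29 libraries (70.9 CPM).

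The depot difference of Myc differed between the labelled sexes by the test of that difference itself: the log2 fold change in labelled males minus that in labelled females was 1.39 (edgeR FDR = 0.0340). It was not called without the 5 pgWAT libraries against their sex label (1.25, edgeR FDR = 0.0778), by limma-voom (FDR = 0.0728), with plate column as a factor (edgeR FDR = 0.0506) or in 10 of 29 fits that left out 1 library. Myc was lower in pgWAT in labelled females (-1.06) and not called in labelled males (0.33). In the 3 pgWAT libraries labelled female that matched their label Myc was 36.8, 30.4 and 26.7 CPM, and in the 2 matching males it was 49.8 and 56.8 CPM. Labelled female libraries with Y-linked counts had 22.9, 25.6 and 46.7 CPM, and labelled male libraries with Xist counts had 72.6 and 56.0 CPM.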

How the results depend on the processing

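Jun, Fosl1 and Ier3 kept their direction and call between depots in each of 29 fits that left out 1 library and without the 5 pgWAT libraries against their sex label. The number of members called between depots stayed at 3 or 4. In labelled males 4 were called, but 1 (Atf3) without the 5 libraries, and 1 to 4 when 1 library was left out, with 1 left without pgWAT male replicate 2 or 4. Calls over all genes fell as well in these fits. They were 1801 of 8853 with all libraries, 1271 of 9191 without replicate 2 and 1184 of 9137 without replicate 4. Without the 5 libraries 5.84% of 9516 genes were higher and 3.32% lower. In labelled females 4 were called, and 2 in column 10 alone. Within iWAT 0 were called between sexes, against 1 without the filter, 1 by DESeq2, 1 by limma-voom, 2 without the 5 libraries and 0 to 2 in the fits that left out 1 library. Over all genes 285 were called there, and 206 to 332 in the fits that left out 1 library. Within pgWAT 0 were called, against 1 (Atf3) without the 5 libraries and 1 in column 8 alone. The difference of depot differences had 1 call, with 0 by limma-voom, 0 with plate column as a factor and 0 to 1 when 1 library was left out. Over all genes it had 16 calls, and 3 to 31 when 1 library was left out. Without the 5 libraries the call there was Atf3 in place of Myc.

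Values that changed sign were not called under either setting, apart from Fosl1 between depots in males, which was 0.56 in column 7. Between depots, Fos was -0.091 without the 5 libraries, and Atf3 was -0.18 without them, -0.15 by limma-voom and between -0.13 and 0.51 when 1 library was left out. Between iWAT sexes, Jun was 0.18 with plate column as a factor, 0.0081 in column 7, 0.75 in column 9 and between -0.11 and 0.042 when 1 library was left out. There Fosl1 was 0.25 and Myc 0.16 in column 9, and Ier3 was 0.33 in column 7. Column 9 held a single iWAT female library. The cause of these changes was not tested. Myc between depots lost its call under 6 settings besides the fits without 1 library, among them RLE factors (FDR = 0.0521 by edgeR). Ier3 in labelled females lost its call under 6 such settings as well. No paired analysis was possible because the labels give the wells and no animal, experiment or replicate number that groups share. Depth limits Fos, Egr1, Jund and Fosb, which rest on 0 to 20 counts per library, and Atf3, which rests on 1 to 26.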
